A study of Mus musculus with 14 samples.

Results

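Gm12292, Tdg-ps2, Rmrp, Rpph1, Kcnq1ot1, Neat1 and Malat1 are 7 noncoding genes of the 24675 genes with a symbol on the array, which holds 25429 probe sets. They were taken by gene symbol, with 1 probe set each. Each of 14 sorted samples of intestinal crypt cells was hybridised to 1 Affymetrix Mouse Gene 2.0 ST array. All mice carried the Lgr5-EGFP-IRES-CreERT2 allele, which puts EGFP and a tamoxifen-dependent Cre under the control of Lgr5, and all received tamoxifen for 5 days and were killed 1 month later. The mice called Atg7KO were Atg7(fl/fl);Lgr5-EGFP-IRES-CreERT2, and those called WT had the Lgr5 allele without floxed Atg7. Atg7 is an enzyme needed to form autophagosomes. Under tamoxifen, Cre made from Lgr5 acts in Lgr5-expressing stem cells, and the recombined allele is passed on to their progeny. From individual mice, CD24(low)/EGFP(High) cells were sorted to enrich stem cells, and CD24(low)/EGFP(Low) cells to enrich transit amplifying progenitors. There were 4 Atg7KO-Low, 4 WT-Low, 3 Atg7KO-High and 3 WT-High samples. Ages are not stated. Each array carried amplified cDNA from 1 ng of RNA.

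The question the design puts is which RNAs differ between Atg7KO and WT in either sorted population, and between the populations in either genotype. The members were chosen with results of these samples known, and the values that picked each of them are not recorded. The Atg7KO against WT differences in EGFP high cells are therefore given for all 7 as a description, without a test. The same holds for the EGFP high against low differences of Gm12292 and Tdg-ps2. Those of the other 5 members were tested, but they share the EGFP high arrays with the comparison that may have picked them. Whether the EGFP low arrays had a part in the choice is not recorded either, so tests on them hold only as far as they had none.

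The members belong to several kinds of noncoding RNA. Rmrp is the RNA of RNase MRP, which cuts precursor ribosomal RNA, and Rpph1 is the RNA of RNase P, which trims the 5′ ends of precursor tRNAs. Both are made by RNA polymerase III, and their complexes share most protein subunits. Neat1 is the scaffold of nuclear paraspeckles and Malat1 is a nuclear speckle RNA. They are neighbouring genes, and the 3′ end of Malat1 and of the long form of Neat1 is made by RNase P cutting at a tRNA-like structure. Kcnq1ot1 is an imprinted antisense RNA of the Kcnq1 domain that silences neighbouring genes in cis on the paternal chromosome. Tdg-ps2 is a pseudogene of Tdg, the thymine DNA glycosylase of base excision repair. Gm12292 is a predicted long noncoding RNA (lncRNA) on chromosome 11, for which no function is stated here.

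Gm12292 and Kcnq1ot1, the members with the widest rises from EGFP low to EGFP high cells in Atg7KO mice, were matched to 3 transcript start windows in RefSeq, on build GRCm38.p6. Each window runs from 250 bases before the start to 50 bases from it, on the minus strand, and is printed to show what sequence lies at these starts. RefSeq gives Gm12292 more than 1 start, and the array's probe set covers the gene as a whole, so no value here belongs to one start. The windows lie at chr11:64899034-64899333 and chr11:64843783-64844082 for Gm12292, and at chr7:143296498-143296797 for Kcnq1ot1. Capitals mark CCAAT boxes, written ATTGG where the box is on the opposite strand.

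Gm12292, first window: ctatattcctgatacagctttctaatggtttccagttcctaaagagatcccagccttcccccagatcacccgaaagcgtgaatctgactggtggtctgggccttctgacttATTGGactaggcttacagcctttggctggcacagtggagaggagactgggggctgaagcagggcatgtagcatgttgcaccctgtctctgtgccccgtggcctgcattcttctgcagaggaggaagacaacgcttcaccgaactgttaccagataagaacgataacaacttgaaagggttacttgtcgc

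Gm12292, second window: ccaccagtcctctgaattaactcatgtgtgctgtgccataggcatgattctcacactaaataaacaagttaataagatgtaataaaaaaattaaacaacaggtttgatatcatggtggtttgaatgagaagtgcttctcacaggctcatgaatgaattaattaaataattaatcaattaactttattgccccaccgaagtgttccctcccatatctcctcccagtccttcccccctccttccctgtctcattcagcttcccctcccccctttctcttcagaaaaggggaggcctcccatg

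Kcnq1ot1: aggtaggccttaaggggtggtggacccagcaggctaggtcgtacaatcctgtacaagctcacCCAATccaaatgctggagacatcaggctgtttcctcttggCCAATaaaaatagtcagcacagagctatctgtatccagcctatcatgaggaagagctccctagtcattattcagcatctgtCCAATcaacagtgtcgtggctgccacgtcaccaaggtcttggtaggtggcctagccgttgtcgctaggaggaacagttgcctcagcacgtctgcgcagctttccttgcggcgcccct

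The windows of Gm12292 differed from each other in base composition. The first held 7 CpG dinucleotides and was 51.3% G or C, beside a median of 7 CpG and 52.7% over the 32851 windows of the table. The second held 1 CpG, was 42.0% G or C, and only 5.43% of all windows had fewer CpG. A search of both strands for 6 motifs found CCAAT once in the first window of Gm12292, with its first base at -139 from the start, and 3 times in that of Kcnq1ot1, at -188, -148 and -67. CCAAT is held by 37.4% of all windows of this length. TATAAA, held by 13.6%, GGGCGG, held by 35.7%, ATCAAAG, held by 3.73%, TGACTCA, held by 5.20%, and CACGTG, held by 7.15%, were not in these 3 windows. Malat1 also matched, with 10 CpG and no match to any of the 6 motifs. The other 4 members had no window here.

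Values are log2 units as deposited, from 1.65 to 13.78, with array medians from 4.30 to 4.49, and a difference of 1 is a doubling on this scale. All 7 members passed the filter that kept 15873 genes, a value at or above the 40th percentile of its array on at least 3 arrays. Differences were tested with limma in 1 fit over the 4 groups, and adjusted p is Benjamini-Hochberg over the 15873 genes. Of these genes, 1152 had an unadjusted p under 0.05 between genotypes among EGFP low samples, and 2519 among EGFP high samples. Between populations it was 2348 genes in WT and 4289 in Atg7KO mice. Lgr5 checked the sort: it was higher in EGFP high cells by 3.52 in WT and 3.32 in Atg7KO mice (adjusted p 0.000247 and 0.000138). Every Atg7KO array was below WT for Atg7, with differences of -1.02 among EGFP low samples and -0.65 among EGFP high samples (adjusted p 0.166 and 0.208). Mean levels of leukocyte markers were 3.83 to 4.15 and of stromal markers 3.97 to 4.32 on all arrays, below or near the array medians. Paneth and goblet markers were high in every group, although the sorts were meant for stem cells and progenitors. Over the 8 Paneth markers the mean level was 8.14 to 9.52 in Atg7KO-High and 9.66 to 10.64 in WT-High samples. Over the 8 goblet markers it was 7.87 to 9.76 and 9.42 to 10.01, and over the 10 enterocyte markers 7.52 to 7.85 and 7.71 to 9.08. These and enteroendocrine markers also moved with the gate. In Atg7KO mice the group mean went from 11.02 to 8.77 for goblet, from 9.92 to 8.81 for Paneth, from 8.83 to 6.99 for enteroendocrine and from 9.04 to 7.68 for enterocyte markers. In WT mice it went from 11.24 to 9.71, from 10.69 to 10.11, from 8.86 to 7.00 and from 8.96 to 8.32 in the same order. The part of these cells in the members' values was not tested. The arrays Atg7KO-High-356 and WT-Low-411 stood apart by the narrowest spread of log2 values, with SDs of 1.90. In EGFP high cells the spread moved with genotype, from 1.90 to 1.98 in Atg7KO and from 1.99 to 2.06 in WT samples. In sorted bulk samples, fewer cells of a type and less RNA per cell cannot be told apart.

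Gm12292 was high in 1 of the 4 groups. The 3 Atg7KO-High arrays gave 6.97, 6.68 and 6.65, and the 3 WT-High arrays 5.08, 4.62 and 4.58. All 11 arrays outside Atg7KO-High were at or below 5.43. In EGFP high cells the mean was 6.77 ± 0.17 (SD, n = 3) in Atg7KO and 4.76 ± 0.28 (SD, n = 3) in WT samples, a difference of 2.01 (SE 0.16), or 4.02-fold. It was 1.91 without the arrays Atg7KO-High-356 and WT-Low-411.

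Among EGFP low samples the order was the opposite. Atg7KO-Low arrays gave 5.03, 4.87, 5.01 and 5.00, and WT-Low arrays 5.10, 5.27, 5.41 and 5.43. Every Atg7KO-Low value was below every WT-Low value, by a narrow margin. The means were 4.98 ± 0.08 (SD, n = 4) and 5.30 ± 0.15 (SD, n = 4), a difference of -0.33 (SE 0.14) that did not pass limma's test over all genes (adjusted p 0.665). An exact two-sided permutation test of this 1 gene over the 8 samples gave p = 0.0286, the smallest that 70 arrangements allow. Complete separation of the EGFP low arrays was found in 3.4% of tested genes, with Atg7KO above WT in 1.71% and below it in 1.69%.

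Gm12292 thus had the order of group means Atg7KO-High, WT-Low, Atg7KO-Low, WT-High. WT-Low and Atg7KO-Low, and Atg7KO-Low and WT-High, are neighbours in this order, and the last pair overlapped. Between populations, EGFP high minus low was -0.54 (SE 0.15) in WT mice, with all EGFP high arrays below, and 1.79 (SE 0.15) in Atg7KO mice, with all above, given as descriptions. The difference between the genotype differences in the 2 populations was 2.33 (SE 0.22). Of all tested genes, 24, or 0.151%, had every Atg7KO array above WT in EGFP high cells and below WT in EGFP low cells. The choice of Gm12292 may have used these conditions.

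**Figure D1:**
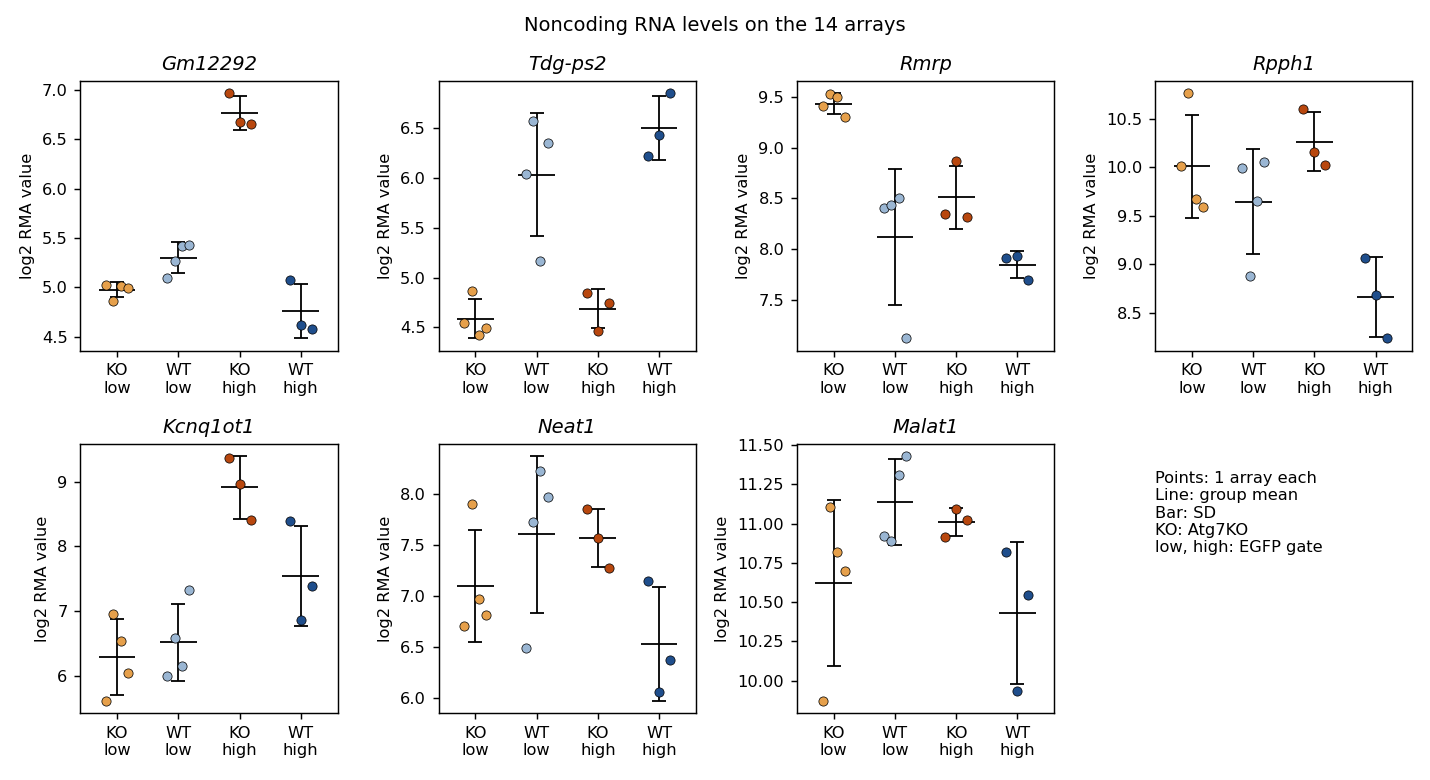
Deposited log2 values of the 7 members on each of the 14 arrays, 1 panel per gene, with points for arrays, horizontal lines for group means and error bars for 1 SD. In EGFP high cells Atg7KO and WT points do not overlap for any member, which the choice of members may have used, while in EGFP low cells they are apart only for Gm12292, Tdg-ps2 and Rmrp.

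Genotype differences of the genes next to Gm12292 were smaller than its own in EGFP high cells. On the side of higher coordinates lie Elac2, which encodes the RNase Z that trims tRNA 3′ ends, Arhgap44, and Myocd, a smooth muscle coactivator gene. Elac2 differed between Atg7KO and WT by -0.16 (SE 0.18, adjusted p 0.678 in limma) in EGFP high cells and by -0.13 (SE 0.16, adjusted p 0.895) in EGFP low cells. Arhgap44 differed by 0.26 (SE 0.18, adjusted p 0.475) in EGFP high cells, with every Atg7KO array above WT, and by -0.15 (SE 0.15, adjusted p 0.856) in EGFP low cells. Myocd did not pass the filter on low values, nor did Gm12290, F930015N05Rik and Hs3st3a1 on the other side. The group means of Hs3st3a1, a heparan sulfate sulfotransferase gene, ran from 3.64 in WT-High to 3.96 in Atg7KO-High samples. Its Atg7KO-High values were all above WT-High, although the nearest, 3.726 and 3.724, almost met. In EGFP high cells all Atg7KO arrays were above WT for 10.2% of tested genes.

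The 5 genes whose values followed Gm12292 most closely over the 14 arrays were the lncRNA 4921511C10Rik (Pearson r 0.902), Gpr146 (0.893), Dnajb7 (0.880), the small nucleolar RNA (snoRNA) Snora43 (0.870) and 5730409K12Rik (0.870). Gpr146 encodes an orphan G protein-coupled receptor and Dnajb7 a DnaJ co-chaperone. These correlations carry the differences between groups. For deviations from the group means r was 0.221, 0.624, 0.115, 0.319 and 0.285 in the same order. All 5 were higher in Atg7KO-High than in WT-High samples, by 0.98, 0.62, 0.96, 0.91 and 0.79, beside 2.01 for Gm12292. From EGFP low to EGFP high cells of Atg7KO mice the differences were 0.98, 0.68, 1.25, 1.19 and 0.84. All 5 were ranked on the same 14 arrays, so these differences are part of how they were found and are given without a test. 4921511C10Rik and Dnajb7 passed the filter on low values on the 3 Atg7KO-High arrays and on 0 of the others.

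**Figure D2:**
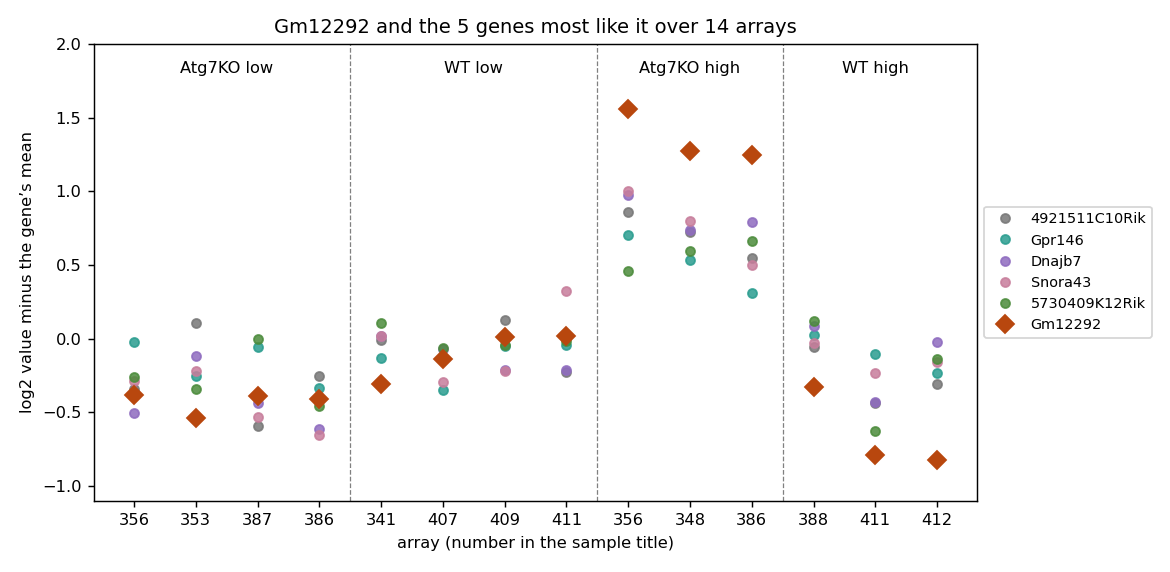
Log2 value of Gm12292 (diamonds) and of its 5 closest genes by Pearson r (circles), each centred on its own mean over the 14 arrays, by array and group. Gm12292 stands highest on the 3 Atg7KO-High arrays, and the other genes stand above their means there by smaller amounts.

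Tdg-ps2 was the member lower in Atg7KO samples of both populations. Atg7KO-Low arrays gave 4.55, 4.87, 4.43 and 4.50, and WT-Low arrays 6.03, 6.57, 5.17 and 6.35. Every Atg7KO-Low array was below every WT-Low array, and WT-Low-409 was the closest. The difference was -1.44 (SE 0.25), or 2.72-fold, which did not pass limma's test (adjusted p 0.166). Without WT-Low-409, the WT-Low array nearest to the Atg7KO-Low values, it was -1.73 and passed (adjusted p 0.00543). It did not pass in the other 13 omissions of 1 array (adjusted p up to 0.411). Nor did it pass under any of the 11 other settings (adjusted p 0.127 to 0.789). The Atg7KO-High arrays gave 4.84, 4.47 and 4.75, and the WT-High arrays 6.21, 6.43 and 6.84, which again did not overlap. The difference there was -1.81 (SE 0.29), or 3.51-fold. Without Atg7KO-High-356 and WT-Low-411 the differences were -1.34 in EGFP low and -1.89 in EGFP high samples.

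In both populations every Atg7KO array was below WT for 45 tested genes, or 0.284%, and Tdg-ps2 is one of them. The choice of Tdg-ps2 may have used these conditions, so nothing is read from that share. The order of its group means was WT-High at 6.50 ± 0.32 (SD, n = 3), WT-Low at 6.03 ± 0.62 (SD, n = 4), Atg7KO-High at 4.69 ± 0.20 (SD, n = 3) and Atg7KO-Low at 4.59 ± 0.20 (SD, n = 4). The WT groups overlapped each other, as did the Atg7KO groups. Between populations Tdg-ps2 differed by 0.47 (SE 0.27) in WT and 0.10 (SE 0.27) in Atg7KO mice, given without a test.

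A pseudogene can share probe sequence with its parent, so the value of Tdg-ps2 is uncertain as a measure of that locus alone. The Tdg probe set itself did not pass the filter and had group means from 2.43 to 2.89, with SDs from 0.49 to 0.59. Of the 17 tested genes of Tdg and base excision repair, limma called 0 between Atg7KO and WT in either population. Over all tested genes it called 0.0063% among EGFP low and 0.0126% among EGFP high samples. Of the 17, 2 among EGFP low and 3 among EGFP high samples had an unadjusted p under 0.05. Tet1, which oxidises 5-methylcytosine, was the 1 gene of the list called higher in EGFP high than in EGFP low cells of Atg7KO mice. It differed by 0.57 (adjusted p 0.0328), beside 4.48% of all tested genes called higher there. That call was lost without any 1 of Atg7KO-Low-356, Atg7KO-Low-387, Atg7KO-Low-386, Atg7KO-High-356 and Atg7KO-High-386 (adjusted p up to 0.146). The genes closest to Tdg-ps2 over the 14 arrays were Hmgxb4, Ckap5 and Cep72 (r 0.835, 0.833 and 0.812).

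Rmrp was higher in Atg7KO samples of both populations. Atg7KO-Low arrays gave 9.41, 9.53, 9.50 and 9.30, and WT-Low arrays 8.41, 8.44, 8.51 and 7.12. All Atg7KO-Low values were above all WT-Low values, and WT-Low-411, an array of narrow spread, was far below the other WT-Low arrays. The difference was 1.31 (SE 0.25), or 2.49-fold, with adjusted p 0.166 in limma. Without WT-Low-411 and Atg7KO-High-356 it was 0.98 (adjusted p 0.153). Atg7KO-High arrays gave 8.34, 8.87 and 8.32 and WT-High arrays 7.91, 7.94 and 7.70, a difference of 0.66 (SE 0.29). It was 1.20 once array SD was a covariate. Every Atg7KO array was above WT in both populations for 13 tested genes, or 0.0819%. The choice of Rmrp may have used these conditions, so nothing is read from that share.

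The level of Rmrp followed the order Atg7KO-Low at 9.43 ± 0.10 (SD, n = 4), Atg7KO-High at 8.51 ± 0.31 (SD, n = 3), WT-Low at 8.12 ± 0.67 (SD, n = 4) and WT-High at 7.85 ± 0.13 (SD, n = 3). The Atg7KO-Low arrays were above all others, and each other neighbouring pair in the order overlapped. In Atg7KO mice Rmrp fell from EGFP low to EGFP high cells by 0.92 (SE 0.27, adjusted p 0.0439), with no overlap. In this comparison calls were common: 10.9% of tested genes were called and 6.44% called lower, and the arrays of 22.6% did not overlap. The call stood close to the threshold. It was lost with the array SD as a covariate (adjusted p 0.413), with no filter (0.0606), with quantile normalization (0.0854) and with cyclic loess (0.0749). Leaving out 1 array ended it for Atg7KO-Low-356 (0.0706), Atg7KO-Low-353 (0.0729), Atg7KO-Low-387 (0.0825) and Atg7KO-Low-386 (0.0709). The same held for Atg7KO-High-356 (0.147), Atg7KO-High-348 (0.0530), Atg7KO-High-386 (0.112), WT-High-388 (0.0559), WT-High-411 (0.0575) and WT-High-412 (0.0586). In WT mice Rmrp differed between populations by -0.27 (adjusted p 0.711).

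Rpph1, the RNase P RNA, had its wider genotype difference in EGFP high cells. Atg7KO-High arrays gave 10.61, 10.16 and 10.03, and WT-High arrays 9.06, 8.68 and 8.23. These did not overlap, and the difference was 1.61 (SE 0.34), or 3.04-fold. It was 1.12 once array SD was a covariate. Atg7KO-Low arrays gave 10.02, 10.77, 9.67 and 9.60 and WT-Low arrays 9.99, 8.88, 9.66 and 10.06. These overlapped, with a difference of 0.36 (SE 0.30, adjusted p 0.826).

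The order of the group means of Rpph1 was Atg7KO-High at 10.27 ± 0.30 (SD, n = 3), Atg7KO-Low at 10.01 ± 0.54 (SD, n = 4), WT-Low at 9.65 ± 0.54 (SD, n = 4) and WT-High at 8.66 ± 0.42 (SD, n = 3). Each neighbouring pair in this order overlapped. EGFP high minus low was -0.99 (SE 0.32, adjusted p 0.133) in WT mice and 0.25 (SE 0.32, adjusted p 0.661) in Atg7KO mice, and the latter was -0.15 once array SD was a covariate. Rmrp and Rpph1 did not track each other within groups: r was 0.420 over the 14 arrays and -0.213 for deviations from the group means.

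The proteins of the 2 complexes and of the polymerase that makes these RNAs were set beside them. Between genotypes limma called only 0.0063% of all tested genes among EGFP low and 0.0126% among EGFP high samples. With so few calls, 0 in a short list says little about that list. Of the 11 tested protein subunits of RNase P and RNase MRP, 0 were called between Atg7KO and WT by limma (1 among EGFP low and 0 among EGFP high samples at an unadjusted p under 0.05), and the median difference was 0.24 among EGFP low and -0.11 among EGFP high samples. The latter turned to 0.09 with array SD as a covariate. Over all tested genes the medians were 0.00 and -0.03. A higher mean in Atg7KO samples was found for 9 of the 11 subunits among EGFP low and 2 among EGFP high samples. With array SD as a covariate it was 8 and 7. Over all tested genes 50.3% and 46.2% were higher. Rpp30 had the smallest p in EGFP low cells, with 0.52 (adjusted p 0.591). Rpp25 fell from EGFP low to EGFP high cells in Atg7KO mice by 0.53 (adjusted p 0.0408), 1 of 11 beside 10.9% of all tested genes called, a call lost without any 1 of Atg7KO-Low-353, Atg7KO-Low-386, WT-Low-341, the 3 Atg7KO-High arrays, WT-High-411 and WT-High-412 (adjusted p up to 0.143). Of 19 tested genes of RNA polymerase III and its factors, 0 were called between genotypes in limma, with 2 in each population at an unadjusted p under 0.05. Snapc3, a subunit of the complex that binds snRNA-type promoters, had the smallest p in EGFP high cells (0.74, adjusted p 0.196).

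Between populations of Atg7KO mice, Brf2, an initiation factor for such promoters, and Snapc3 rose by 0.68 and 0.80, and Snapc5, of the same complex as Snapc3, fell by 1.15 (adjusted p 0.0251, 0.0361 and 0.0113). Brf2 was low, with a mean of 3.67 in Atg7KO-Low samples. It reached the filter's percentile on 1 Atg7KO-Low array, 2 WT-Low arrays and all EGFP high arrays. Snapc5 lost its call only without Atg7KO-High-356 (adjusted p 0.0576) among the 14 omissions of 1 array, whereas Brf2 lost its call in 4 (up to 0.0894) and Snapc3 in 5 (up to 0.102) of them. Among the other settings Snapc5 lost its call in 3 of 11 (up to 0.129), Brf2 in 5 of 10 (up to 0.0672) and Snapc3 in 4 of 11 (up to 0.274). With 3 of 19 called, beside 10.9% of all tested genes, 0 of 19 were called with array SD as a covariate. Over the omissions Brf2 and Snapc3 lost their calls without Atg7KO-Low-386, Atg7KO-High-348 or Atg7KO-High-386, Brf2 also without Atg7KO-Low-353, and Snapc3 also without Atg7KO-Low-356 or Atg7KO-High-356. In WT mice 0 genes of either list were called between populations by limma, with 1 of the 19 polymerase III genes at an unadjusted p under 0.05.

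Kcnq1ot1 rose from EGFP low to EGFP high cells in Atg7KO mice. Atg7KO-Low arrays gave 5.61, 6.96, 6.55 and 6.04, and Atg7KO-High arrays 9.37, 8.96 and 8.40. The groups lay well apart, by 2.62 (SE 0.40), or 6.17-fold (adjusted p 0.00158, limma). In this comparison 4.48% of tested genes were called higher. The call stood under all 25 other settings and omissions, with adjusted p from 0.000935 to 0.0254. It shares the Atg7KO-High arrays with the comparison that may have picked Kcnq1ot1, and refits of the same arrays do not remove that. The size was 1.84 once array SD was a covariate.

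In WT mice the EGFP low arrays gave 6.00, 6.58, 6.15 and 7.33, and the EGFP high arrays 8.39, 6.86 and 7.38. They overlapped, with a difference of 1.03 (SE 0.40, adjusted p 0.228), which became 1.38 and was called with array SD as a covariate (adjusted p 0.0492). Between genotypes in EGFP high cells all 3 Atg7KO arrays were above WT, although Atg7KO-High-386 at 8.40 and WT-High-388 at 8.39 almost met. That difference was 1.37 (SE 0.43), and 0.43 with array SD as a covariate. Among EGFP low samples it was -0.23 (SE 0.37, adjusted p 0.925), and 0.04 without WT-Low-411 (adjusted p 0.985). The group means in order were Atg7KO-High at 8.91 ± 0.49 (SD, n = 3), WT-High at 7.55 ± 0.78 (SD, n = 3), WT-Low at 6.52 ± 0.59 (SD, n = 4) and Atg7KO-Low at 6.29 ± 0.59 (SD, n = 4), and only the first pair of neighbours did not overlap.

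Kcnq1, the potassium channel gene that Kcnq1ot1 lies antisense to, rose with the EGFP gate in both genotypes. It was higher in EGFP high cells by 1.09 (SE 0.25, adjusted p 0.0355) in WT and by 1.40 (SE 0.25, adjusted p 0.00341) in Atg7KO mice. The first of these calls was lost without any 1 of WT-Low-341, WT-Low-409, WT-Low-411, WT-High-388, WT-High-411 and WT-High-412 (adjusted p up to 0.155). Between genotypes Kcnq1 differed by 0.19 among EGFP high and -0.13 among EGFP low samples (adjusted p 0.755 and 0.937). Both the antisense RNA and its host gene thus rose with the gate in Atg7KO mice. The sources do not state which strand the probe sets read, so the signal of this antisense pair is uncertain.

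Of the 10 tested genes of the Kcnq1 imprinted domain, 3 were called higher in EGFP high than in EGFP low cells of WT mice. They were Cd81, a tetraspanin (0.72, adjusted p 0.0271), Kcnq1, and Ascl2, the stem cell transcription factor (0.78, adjusted p 0.0494). The share called over all genes was 2.44%, of which 1.22% in each direction. The count ranged from 0 to 3 when 1 array was left out, with Ascl2 lost in 11 of the 14 omissions (adjusted p up to 0.245) and Cd81 lost without WT-Low-409 or any 1 WT-High array (up to 0.140). In Atg7KO mice Kcnq1 and Trpm5, a cation channel of tuft cells, rose (Trpm5 by 0.59, adjusted p 0.0115), and Slc22a18, a transporter, fell by 1.04 (adjusted p 0.0206), beside 10.9% of all tested genes called. The call of Trpm5 was lost without Atg7KO-High-348 (adjusted p 0.0603), and that of Slc22a18 without Atg7KO-Low-386 or Atg7KO-High-348 (up to 0.0896). Among 12 chromatin partners of Kcnq1ot1, 1 was called in Atg7KO mice: Suz12, a Polycomb subunit, fell by 0.51 (adjusted p 0.0457), a call lost in 12 of the 14 omissions (up to 0.184). Between genotypes limma called 0 genes of either list, beside 0.0063% of all tested genes among EGFP low and 0.0126% among EGFP high samples. At an unadjusted p under 0.05 were 1 chromatin partner among EGFP low samples, and 2 domain genes and 3 partners among EGFP high samples.

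**Figure D3:**
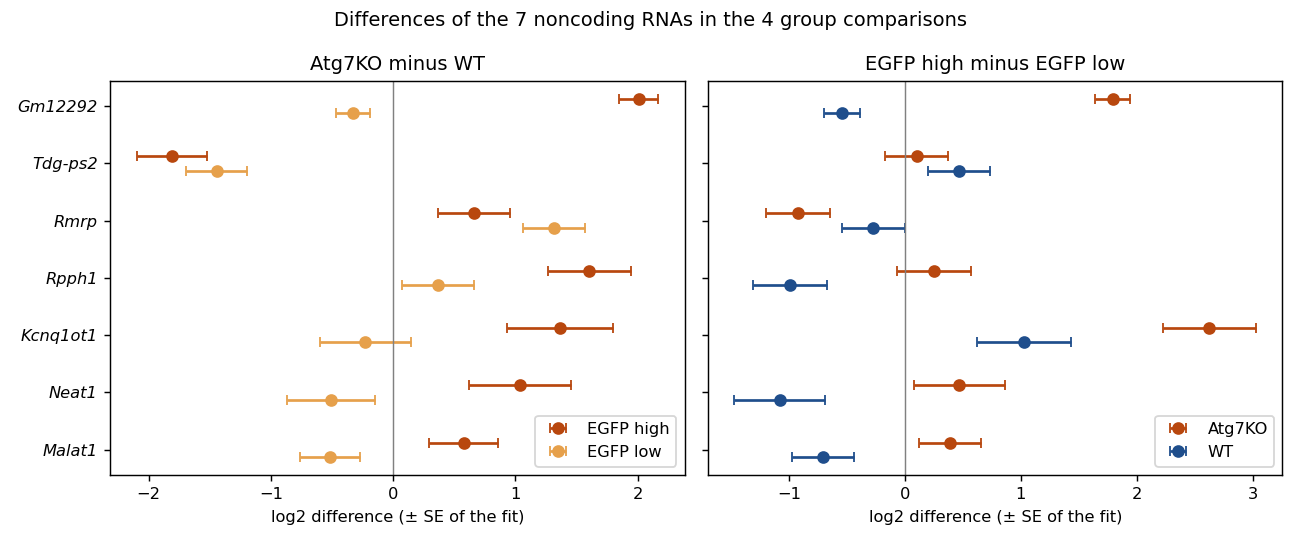
Log2 differences of the 7 members in each of the 4 comparisons, with points for the fitted difference and bars for 1 SE. Gm12292 and Kcnq1ot1 lie farthest to the right in the EGFP high minus low comparison within Atg7KO mice, at 1.79 and 2.62, and Tdg-ps2 lies to the left in both Atg7KO minus WT comparisons.

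Neat1 and Malat1 were both lowest in WT-High samples. For Neat1, Atg7KO-High arrays gave 7.85, 7.57 and 7.28 and WT-High arrays 7.15, 6.06 and 6.37. The difference was 1.04 (SE 0.42), and 0.48 with array SD as a covariate. Atg7KO-Low arrays gave 6.70, 7.90, 6.97 and 6.81 and WT-Low arrays 6.49, 7.72, 8.23 and 7.98. These overlapped (difference -0.51, SE 0.36, adjusted p 0.791).

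For Malat1, Atg7KO-High arrays gave 10.91, 11.09 and 11.02 and WT-High arrays 10.82, 9.94 and 10.54. The 3 Atg7KO-High values were close to each other and just above the highest WT-High value. The difference was 0.58 (SE 0.28), and 0.20 with array SD as a covariate. Atg7KO-Low arrays gave 9.87, 11.10, 10.82 and 10.69 and WT-Low arrays 10.92, 10.89, 11.31 and 11.43, with overlap and a difference of -0.52 (SE 0.25, adjusted p 0.692). Array Atg7KO-Low-356 had the lowest Malat1 value of all 14 arrays and the lowest Neat1 value of its group.

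Between populations of WT mice, EGFP high minus low was -1.08 (SE 0.39, adjusted p 0.182) for Neat1 and -0.71 (SE 0.27, adjusted p 0.206) for Malat1. Neither passed the test, although every WT-High Malat1 value was below every WT-Low value. Without WT-Low-341 the Neat1 difference was -1.45 and passed (adjusted p 0.0375). It did not pass in the other 13 omissions of 1 array (adjusted p up to 0.529) or under the 11 other settings (0.0865 to 0.330). In Atg7KO mice the differences were 0.47 (SE 0.39, adjusted p 0.472) and 0.39 (SE 0.27, adjusted p 0.376). That of Neat1 was -0.001 once array SD was a covariate.

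The order of the means was WT-Low at 7.61 ± 0.77 (SD, n = 4), Atg7KO-High at 7.57 ± 0.29 (SD, n = 3), Atg7KO-Low at 7.10 ± 0.55 (SD, n = 4) and WT-High at 6.53 ± 0.56 (SD, n = 3) for Neat1. It was WT-Low at 11.14 ± 0.27 (SD, n = 4), Atg7KO-High at 11.01 ± 0.09 (SD, n = 3), Atg7KO-Low at 10.62 ± 0.53 (SD, n = 4) and WT-High at 10.43 ± 0.45 (SD, n = 3) for Malat1. The order is the same for both RNAs, and neighbours in it overlapped. Their values correlated over the 14 arrays with r = 0.783, and with r = 0.654 for deviations from the group means.

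The proteins of the bodies these RNAs belong to were mostly not called. Of 15 tested paraspeckle proteins, 0 passed limma's test in any of the 4 comparisons, with 1 to 3 at an unadjusted p under 0.05 in each. Sfpq, a core paraspeckle protein that binds Neat1, was nearest to it, with 0.46 (adjusted p 0.221) between genotypes in EGFP high cells and 0.48 (adjusted p 0.0561) between populations of Atg7KO mice. Of 17 tested nuclear speckle and splicing factors, 2 were called higher in EGFP high than in EGFP low cells of Atg7KO mice. They were Srrm2, a scaffold of speckles, and Luc7l3, by 0.70 and 0.50 (adjusted p 0.00918 and 0.0279). These 2 of 17 stand beside 4.48% of all tested genes called higher and 10.9% called in either direction. Srrm2 kept its call in all 14 omissions of 1 array, and Luc7l3 lost it in 4, without Atg7KO-Low-387, Atg7KO-Low-386, Atg7KO-High-356 or Atg7KO-High-348. Among the 11 other settings the call of Srrm2 was lost in 1 (adjusted p 0.0707), and that of Luc7l3 in 4 (up to 0.142).

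In a list of 10 tested genes for Malat1 and tRNA-like end processing, 1 was called lower in the same comparison. The list is broader than enzymes that process such ends, and includes Mettl3, Mettl14, Mettl16, Lrpprc and Exosc10. Trmt10c, a subunit of mitochondrial RNase P, fell by 0.67 (adjusted p 0.0481), a call lost in 10 of the 14 omissions (up to 0.220). With 10.9% of all tested genes called in that comparison, 1 of 10 is near the background. Of 18 tested genes of the nuclear exosome and RNA decay, which remove unstable noncoding RNA, 1 was called higher there. It was Zfc3h1, of the complex that targets polyadenylated nuclear RNA to the exosome (0.55, adjusted p 0.0410). The call was lost in 9 of the 14 omissions (up to 0.120), and 1 of 18 is no more than that background. The median difference of this list between genotypes among EGFP high samples was -0.29 (-0.11 with array SD as a covariate, -0.13 with quantile normalization and -0.12 with cyclic loess), and Mtrex, the exosome helicase, had the smallest p (-0.74, adjusted p 0.131). Between genotypes limma called 0 genes of these 2 lists, beside 0.0063% of all tested genes among EGFP low and 0.0126% among EGFP high samples. Among EGFP high samples 6 of the 18 exosome and decay genes had an unadjusted p under 0.05, beside 2519 of all 15873 tested genes.

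Across the members, 6 had all Atg7KO-High arrays above all WT-High arrays and Tdg-ps2 had all below. Over all tested genes 10.2% were all above and 15.2% all below in that comparison, and only 0.0126% passed limma's test. Because the members may have been chosen on these values, nothing is read from the count. Among EGFP low samples 1 member was all above and 2 all below, beside 1.71% and 1.69% of tested genes. There, 3 members had an unadjusted p under 0.05, beside 1152 of the 15873 tested genes. In limma's test 0 of 7 passed, beside 0.0063% of tested genes called. In WT mice 0 of the 5 members with a test passed limma's test between populations, beside 2.44% of tested genes called. Of these 5, 4 had an unadjusted p under 0.05, beside 2348 of the 15873 tested genes. Of all 7, Gm12292 and Malat1 had every EGFP high array below EGFP low and 0 had every one above, beside 6.52% and 9.97% of tested genes. In Atg7KO mice Kcnq1ot1 was called higher and Rmrp lower, 2 of the 5, beside 10.9% of all tested genes. Both calls share the Atg7KO-High arrays with the comparison that may have picked the members, so nothing is read from this count.

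Some members moved together over the arrays. Gm12292 and Kcnq1ot1 had r = 0.733 over the 14 arrays and 0.557 for deviations from the group means. Kcnq1ot1 correlated little with Neat1 and Malat1 over the arrays (0.299 and 0.314), but more for deviations from the group means (0.729 and 0.732). Tdg-ps2 and Rmrp ran opposite, with r = -0.784 over the arrays and -0.412 for deviations from the group means. The genes closest to Kcnq1ot1 were 4930474M22Rik, Myo9a, an unconventional myosin gene, and C430002N11Rik (r 0.964, 0.959 and 0.957). Myo9a differed between populations of Atg7KO mice by 2.30, which is part of how it was found. The arrays share amplification and spread, so these correlations are descriptions of 14 arrays.

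Other noncoding genes on the array were set beside the members. Between EGFP high samples, 1059 of 1339 tested lncRNAs had a higher mean in Atg7KO than in WT samples, with a median difference of 0.20. Of the 1339, 314 had all Atg7KO arrays above WT and 21 had all below, beside 10.2% and 15.2% of all tested genes. Of 86 tested snoRNAs 78 were higher (median 0.79), and of 214 tested microRNA genes 183 were (median 0.38). Of 13618 tested protein-coding genes 5584 were higher (median -0.07), and over all tested genes it was 7333 of 15873 (median -0.03). Without the filter on low values it was 2412 of 3056 lncRNAs (median 0.14), 10100 of 19683 protein-coding genes (median 0.01) and 13933 of all 24675 genes (median 0.04), so the share of all genes above 0 went from 46.2% to 56.5%. With array SD as a covariate, lncRNAs were 718 of 1339 (median 0.02) and the microRNA genes 108 of 214 (median 0.02), whereas the snoRNAs were 66 of 86 (median 0.50). Without the 2 narrowest arrays the lncRNA, snoRNA and microRNA medians were 0.18, 0.72 and 0.26. These classes include the lncRNA members.

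A list of 31 other well-known lncRNAs, without the members, ran the same way. Of the 31, 26 were higher in Atg7KO-High than in WT-High samples (median 0.52, and 0.19 with array SD as a covariate). All arrays were above WT for 19 and below for 0, beside 10.2% and 15.2% of all tested genes. Limma called 0 of them, beside 0.0126% of all tested genes. An unadjusted p under 0.05 was found for 17, beside 2519 of all 15873 tested genes. Ftx, a lncRNA of the X inactivation centre, had the smallest p there (0.77, adjusted p 0.131). Among EGFP low samples 11 of 31 were higher (median -0.08), and Ftx was lower by 0.57 (adjusted p 0.495). From EGFP low to EGFP high cells of Atg7KO mice 26 of 31 had a difference above 0. Limma called 14 higher and 0 lower, beside 4.48% and 6.44% of all tested genes. Among the 14 were Jpx by 1.73, Ftx by 1.09 and Epb41l4aos by 0.95 (adjusted p 0.0005, 0.00186 and 0.00444). The count of calls ranged from 5 to 17 when 1 array was left out. It was 3 with array SD as a covariate, the lowest of the other settings. In WT mice limma called 0 of 31, with 3 at an unadjusted p under 0.05.

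Among 15 tested small structured RNAs, 13 had a higher mean in Atg7KO than in WT samples in EGFP high cells (median 0.68, and 0.50 with array SD as a covariate). All arrays were above WT for 8 of the 15 and below for 1, beside 10.2% and 15.2% of all tested genes. Rn7sk, the RNA that holds the elongation factor P-TEFb inactive, had the smallest p (0.49, adjusted p 0.181). Among EGFP low samples 10 of 15 were higher (median 0.19), with Terc, the telomerase RNA, at 0.61 (adjusted p 0.739). Between populations of Atg7KO mice 2 of 15 were called higher in EGFP high cells. They were Rnu11, a minor spliceosome RNA, by 0.91 (adjusted p 0.0200), and Scarna13, a Cajal body RNA, by 1.44 (adjusted p 0.0312). Their calls were lost in 3 and 5 of the 14 omissions (adjusted p up to 0.0893 and 0.124) and in the fit with array SD as a covariate, in which 0 of 15 were called. The 2 of 15 stand beside 4.48% of all tested genes called higher and 10.9% in either direction. Both were lost without Atg7KO-Low-386 or Atg7KO-High-348.

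**Figure D4:**
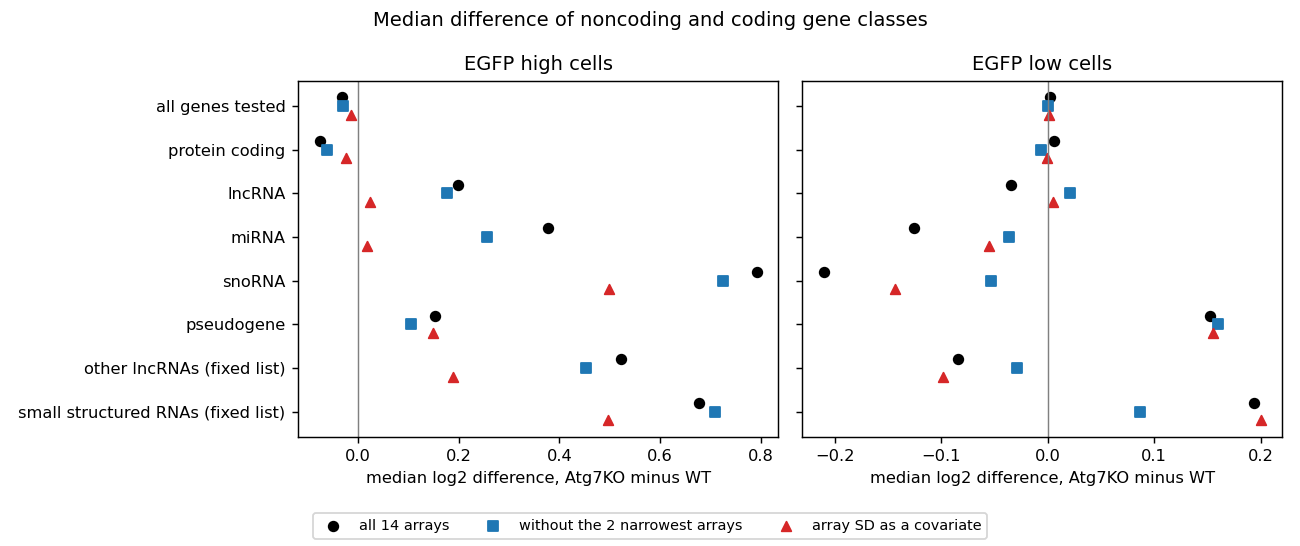
Median log2 difference between Atg7KO and WT samples for gene classes, in EGFP high cells (left) and EGFP low cells (right), with all 14 arrays, without the 2 narrowest arrays and with the array SD as a covariate. In EGFP high cells every noncoding class has a median above that of protein-coding genes, and the lncRNA and microRNA medians fall to 0.02 with the covariate.

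The classes did not run that way among EGFP low samples. There, 566 of 1339 lncRNAs were higher in Atg7KO samples (median -0.03), a direction that turned to 725 of 1339 (median 0.02) without the 2 narrowest arrays. Of 86 snoRNAs 29 were higher (median -0.21; -0.05 without the 2 narrowest arrays), and of 214 microRNA genes 67 (median -0.13; -0.04). Of 312 pseudogenes 232 were higher (median 0.15). From EGFP low to EGFP high cells of Atg7KO mice 140 lncRNAs were called higher and 7 lower of 1339, 11 snoRNAs higher and 0 lower of 86, and 27 microRNA genes higher and 0 lower of 214. The filter asked for 3 arrays, and Atg7KO-High has 3. Genes high in that group alone could thus enter, as the lncRNA 4921511C10Rik did, which favours calls in the higher direction. How many of the called genes entered so was not counted. Over all tested genes in Atg7KO mice 4.48% were called higher and 6.44% lower. With array SD as a covariate the calls were 36 higher and 4 lower for lncRNAs, 5 higher for snoRNAs and 2 higher for microRNA genes, and 259 higher and 227 lower over all tested genes. In WT mice 8 lncRNAs were called higher and 3 lower, beside 1.22% of all tested genes in each direction.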

How the data were processed

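The 14 sorted samples were hybridised to Affymetrix Mouse Gene 2.0 ST arrays, 1 each. Per the submitters' processing notes, the authors used Affymetrix Expression Console and RMA; the deposited values were taken as log2, which their range from 1.65 to 13.78 fits. RMA normalizes between arrays, so a level is relative to its array. Genome build, probe set definition and scan batches are not stated in these sources. The number in a sample's title names it.

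Probe sets were named through GEO's platform annotation: 24675 of 25429 had 1 symbol, 754 had none and 0 had several, and unnamed ones were left out. A model of 4 group means was fitted to all 14 arrays in limma 3.58.1 in R 4.3.3 (lmFit and eBayes, 10 residual and 4.54 prior degrees of freedom), on 15873 genes at or above the 40th percentile of their array on at least 3 arrays. Genes were called at an adjusted p under 0.05. Fits were first tested on simulated data. The arrays' number limits the precision, and whether mice in a group were littermates is not stated, so p-values measure the spread between these samples.

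Named genes are the members, their closest genes by Pearson correlation (5 for Gm12292, 3 for each other member), the 3 named neighbours on each side of Gm12292, Tdg, Kcnq1, Atg7, Lgr5, and from each list up to 3 called genes by smallest p, or the 1 with the smallest p; fewer are printed where they add little. Members and lists were chosen with earlier results of these data known. Gene order, biotypes and start windows are from RefSeq (GRCm38.p6), with windows for 3 of 7 members.

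Title numbers shared between groups were checked for pairing. Deviations from the group means of same-numbered samples correlated at 0.115 (356), 0.182 (386) and -0.04 (411). Samples of unlike number gave -0.146 to 0.085 in Atg7KO and -0.17 to 0.159 in WT mice. The same-numbered Atg7KO samples were thus above all others of their genotype, and the WT ones were not. These values do not settle pairing. The labels do not state it, so the main fit did not treat the samples as pairs. Alternatives were the filter, the prior, the samples in the fit, normalization, array weights, a replicate block, the array SD as a covariate, and omission of arrays.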

Additional observations from a re-analysis of the deposited data

Results flagged for a closer look

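Gm12292 differed between Atg7KO and WT samples by 2.01 log2 units in EGFP high cells and by -0.33 in EGFP low cells, with every array of one genotype on opposite sides in the 2 populations. The difference between the 2 was not tested, because it uses a comparison that may have picked the gene.

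The Rmrp value of 7.12 on WT-Low-411 stood far below the other WT-Low arrays: its gap to the nearest was 0.928 of the group's range, above Dixon's 95% critical value for 4 samples. It was the 1 such sample among 14 groups of values examined, and chance gives about 1 in every 20.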

How the results depend on the processing

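The 4 group comparisons were refitted under 11 other settings and with each of the 14 arrays left out. Of 700 member differences so obtained, 671 were counted as unchanged. Where a test was read, this means the same direction and side of the threshold. For differences given as descriptions it means a move of less than 1 SD, with no threshold. Of the tested differences 14 lost a call, 4 gained one and 4 turned, and 7 of the descriptions moved by 1 SD or more. The Gm12292 difference in EGFP low cells kept its sign in all of them, between -0.39 and -0.27, with adjusted p never under 0.515. The cause of the changes given here was not tested. Reversals were Kcnq1ot1 in EGFP low cells (0.043 without the 2 narrowest arrays, and -0.452 to 0.043 over omissions, with the turn without WT-Low-411), and, between populations of Atg7KO mice with the array SD as a covariate, Rpph1 (-0.15) and Neat1 (-0.001). With that covariate Gm12292 was 1.75 between genotypes in EGFP high cells and 1.58 between populations of Atg7KO mice.

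Members called in WT mice were 1 with array weights (Rpph1, -1.04, adjusted p 0.0394) and 1 with the covariate, and ranged from 0 to 1 over omissions. In Atg7KO mice they were 1 with no filter, with quantile normalization, with cyclic loess and with the covariate, and 1 to 2 over omissions. In EGFP low cells they ranged from 0 to 1. Genes called between genotypes in EGFP low cells (1) were 0 with the 2 groups alone and 0 without the 2 narrowest arrays, and 0 to 2 over omissions. In EGFP high cells (2) they were 1 with no filter and 1 with the strict filter, 5 with the 2 groups alone, 703 with array weights, and 1 to 43 over omissions, with 43 without Atg7KO-High-386. Between populations of WT mice they were 1201 with array weights and 103 to 442 over omissions. In Atg7KO mice (1734) they were 1027 with the 2 groups alone, 486 with the covariate, 1110 without the 2 narrowest arrays, and 781 to 2122 over omissions.

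Of 1100 counts of called genes over the gene lists, 133 differed by over 1.5 times or went between 0 and another count. The classes of genes by biotype are not among these counts. Counts and medians of classes under other settings were added after seeing the data. Median centring moved the median of all genes between genotypes in EGFP high cells from -0.03 to -0.13. With the replicate block (correlation 0.073), Gm12292 in EGFP low cells was -0.33 (adjusted p 0.656), and no member's call changed.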
